A study of Mus musculus with 6 samples.

Results

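Thin filaments of smooth muscle are built of actin with its binding proteins. Of the 10 genes described here, all but desmin encode such proteins. These are the actins Acta2 and Actg2, the actin-associated proteins Tagln, Smtn, Cnn1 and Cald1, the tropomyosins Tpm1 and Tpm2, and the filament nucleator Lmod1. Desmin (Des) belongs to the intermediate filaments that tie the contractile apparatus together, and is counted with the thin filament genes below. The 10 genes were taken as all probe sets annotated to a single one of these symbols. This gave 10 of the 18193 named genes and 23 of the 45101 probe sets in the table. Acta2 had 3 probe sets, Cald1 5, Tpm1 and Tpm2 4 each, Des 2, and Actg2, Tagln, Smtn, Cnn1 and Lmod1 1 each. Where a gene had several, the one with the highest mean over all arrays is called the brightest.

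The arrays held RNA of carotid arteries taken 14 days after wire injury, in which a wire is drawn through the vessel and strips its lining. One group was wild type (WT) and the other carried a global knockout of the interferon regulatory factor gene Irf4 (IRF4 KO), with 3 arrays in each and 3 to 5 vessels pooled for each array. Both groups were injured, and no uninjured artery was analysed here. The sources used here do not give the strain, age or sex of the mice, nor which part of Irf4 was deleted. The labels call the arrays of a genotype biological samples, and pooling leaves the spread between single mice unmeasured.

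Differentiated smooth muscle cells of an artery hold large amounts of these proteins, and their genes are classic targets of serum response factor (SRF) with its coactivator myocardin, which bind a short element called the CArG box. After injury the cells leave this state, multiply and build a neointima, and the same genes fall and later return. KLF4 represses them. In a whole artery, fewer smooth muscle cells and less of a transcript per cell cannot be told apart.

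Expression values are log2 intensities, so a difference of 1 is a doubling. The targeted gene was read first. Its brightest probe set gave 3.90, 3.64 and 3.38 on WT 1 to 3 and 3.27, 3.75 and 3.70 on IRF4 KO 1 to 3. The genotypes overlapped, and this level lay below the median of all probe set means (4.0), so Irf4 did not check the labels. The tissue carried smooth muscle markers: all 6 of the genes used to define it (Myh11, Myl9, Mylk, Itga8, Myocd and Kcnmb1) lay above that median, and their mean level ran from 10.60 to 11.03 in WT and from 10.40 to 11.11 in IRF4 KO. WT 3 and IRF4 KO 1 stood apart, with poly-A spike-in controls averaging 4.93 and 5.14 against 7.35 to 9.26 on the other 4 arrays. Macrophage markers (8 genes) averaged 8.03 and 9.26 on these arrays against 4.43 to 5.63 elsewhere, and cartilage markers (6 genes) 8.08 and 8.18 against 3.96 to 4.40. Each result below is therefore also given as IRF4 KO 1 minus WT 3 and as the difference over the other 4 arrays where it matters.

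With limma fitted over all 45037 probe sets other than controls, 0 of the 23 thin filament probe sets had an adjusted p under 0.05, as did 0% of all probe sets. At an unadjusted p under 0.05 there were 5 of 23, all higher in IRF4 KO, against 0.615% of all probe sets in that direction and 1.74% in both. These 5 were the 3 probe sets of Acta2 and those of Tagln and Smtn, and the same 5 were the ones whose genotypes did not overlap (of all probe sets, 2.75% were higher and 3.24% lower in IRF4 KO without overlap, 5.99% together). The other 18 probe sets, which cover 7 genes, overlapped between genotypes. The members were chosen with earlier results of these data known, and 3 of the 5 probe sets measure 1 gene. These counts are therefore a description and no independent test. The values of these 5 have an unusual distribution, described with the spread below, that leaves their origin in doubt until they are checked against the raw scans. Over the 23 probe sets the median change was -0.019, against 0.011 over all probe sets tested, with 9 higher and 14 lower in IRF4 KO.

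**Figure D1:**
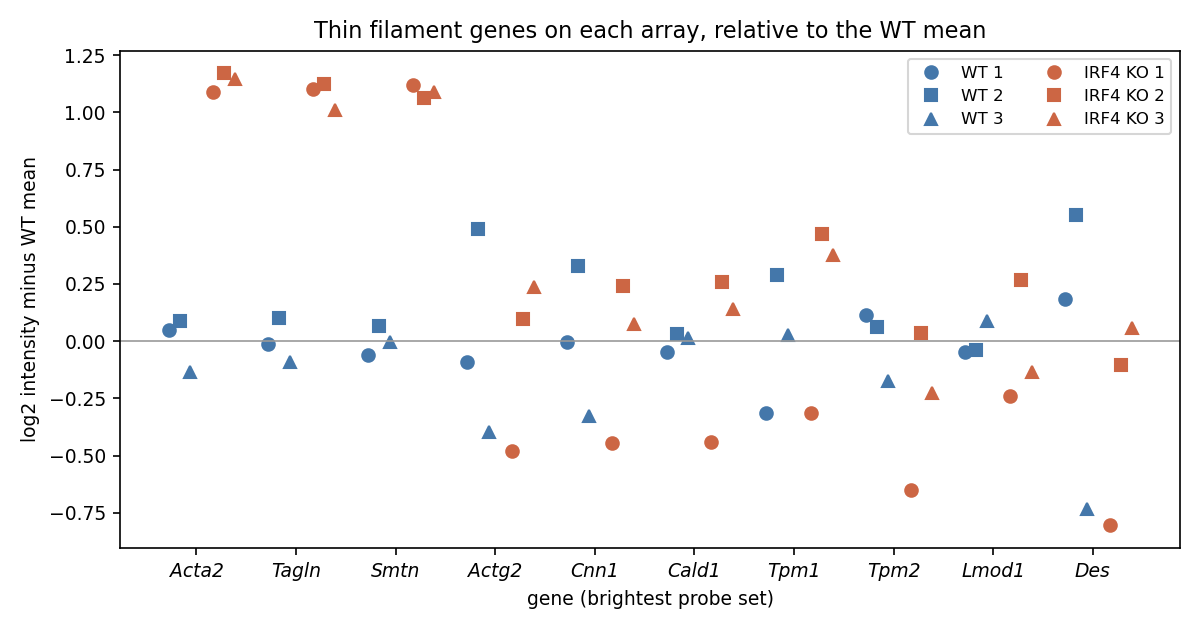
Brightest probe set of each of the 10 genes on every array, as log2 intensity minus the WT mean (vertical axis), with WT in blue and IRF4 KO in orange and the marker shape giving the replicate number. For Acta2, Tagln and Smtn all 3 IRF4 KO arrays lie about 1 log2 unit above all WT arrays, whereas for the other 7 genes the genotypes overlap and IRF4 KO 1 is the lowest IRF4 KO array.

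Of the actins, Acta2 encodes smooth muscle alpha-actin, the main actin of arterial smooth muscle. Its brightest probe set, 1416454_s_at, read 12.80, 12.84 and 12.62 on WT 1 to 3 and 13.84, 13.92 and 13.90 on IRF4 KO 1 to 3. Every IRF4 KO array was above every WT array by at least 1 unit. The change was 1.14 (SE 0.16, 95% interval 0.76 to 1.51, 2.20-fold; limma adjusted p = 0.344). IRF4 KO 1 exceeded WT 3 by 1.22, and the remaining 4 arrays gave 1.09.

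The other probe sets of Acta2 gave the same step at lower levels. Probe set 1444105_at read 8.67, 8.68 and 8.83 in WT and 9.68, 9.83 and 9.78 in IRF4 KO, a change of 1.04 (95% interval 0.66 to 1.41). For 1456658_at the values were 6.73, 6.98 and 6.88 in WT and 7.95, 7.77 and 7.91 in IRF4 KO, a change of 1.02 (95% interval 0.63 to 1.40). All 3 probe sets thus separated the genotypes, and their intervals overlapped one another. The brightest one reached the top of the scale: its value was the highest of the whole array on all 3 IRF4 KO arrays (13.84, 13.92 and 13.90), and the highest values on WT 1 to 3, from other probe sets, were 13.90, 13.68 and 13.75. Whether the top of the scale compressed its 2.20-fold change was not tested, and the dimmer probe sets, which lay well below the top, gave 2.05-fold and 2.02-fold. The suffix _s_at marks a set whose probes are shared by several transcripts, so signal from a related actin in that set cannot be told apart from Acta2.

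Actg2, the gamma-actin of enteric smooth muscle that is also made in vessels, overlapped between genotypes. It read 9.67, 10.25 and 9.36 on WT 1 to 3 and 9.28, 9.86 and 9.997 on IRF4 KO 1 to 3. WT 2 was the highest array and IRF4 KO 1 the lowest. The change was -0.050 (SE 0.29, 95% interval -0.71 to 0.61; limma adjusted p = 1.0), an interval whose upper bound lies below the estimate of each Acta2 probe set.

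Among the proteins that bind or bundle actin, Tagln (transgelin, SM22-alpha) cross-links actin filaments and is an early marker of the smooth muscle lineage. It read 12.16, 12.27 and 12.08 in WT and 13.28, 13.30 and 13.18 in IRF4 KO, with no overlap. The change was 1.08 (SE 0.16, 95% interval 0.71 to 1.45; limma adjusted p = 0.344), with 1.19 for IRF4 KO 1 against WT 3 and 1.02 in the remaining 4 arrays. Smtn (smoothelin), a cytoskeletal protein found in contractile cells, read 9.68, 9.81 and 9.74 in WT and 10.86, 10.80 and 10.83 in IRF4 KO. Its change was 1.09 (SE 0.16, 95% interval 0.73 to 1.45; limma adjusted p = 0.344), and it was 1.12 and 1.07 within the 2 sets of arrays. For both genes the 3 arrays of a genotype lay within 0.19 of one another.

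Cnn1 (calponin), which binds actin and slows the myosin ATPase, is regulated with Tagln in many settings. Here it read 10.80, 11.14 and 10.48 on WT 1 to 3 and 10.36, 11.05 and 10.88 on IRF4 KO 1 to 3. The genotypes overlapped over most of their range, with WT 2 highest and IRF4 KO 1 lowest. Its change was -0.042 (SE 0.25, 95% interval -0.62 to 0.54; limma adjusted p = 1.0). For IRF4 KO 1 against WT 3 the difference was -0.12, and for the remaining 4 arrays -0.0033.

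Cald1 (caldesmon) inhibits the binding of myosin to actin and exists as a smooth muscle form and a form of other cells. The brightest of its 5 probe sets, 1424769_s_at, read 11.95, 12.03 and 12.01 in WT and 11.56, 12.25 and 12.14 in IRF4 KO. IRF4 KO 1 lay below all WT arrays and the other IRF4 KO arrays above them. The overall change was -0.014 (95% interval -0.52 to 0.49), made of -0.45 for IRF4 KO 1 against WT 3 and 0.21 in the remaining 4 arrays. The other probe sets differed by -0.091 (1424770_at), 0.033 (1424768_at), 0.12 (1433147_at) and -0.046 (1433146_at), the last from a level below the table's median. No Cald1 probe set separated the genotypes.

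Tropomyosins lie along the actin filament and control access of myosin to it. For Tpm1, the brightest probe set, 1423721_at, read 10.83, 11.43 and 11.17 in WT and 10.83, 11.61 and 11.52 in IRF4 KO. WT 1 and IRF4 KO 1 were equal to 2 decimals and the lowest of their genotypes. The change was 0.18 (SE 0.26, 95% interval -0.43 to 0.78; limma adjusted p = 1.0). The difference was -0.34 for IRF4 KO 1 against WT 3 and 0.43 in the remaining 4 arrays. Probe set 1423049_a_at, whose suffix marks several transcripts of one gene, showed the largest difference outside Acta2, Tagln and Smtn. It read 7.57, 10.31 and 9.48 in WT and 9.89, 10.11 and 9.91 in IRF4 KO, so the difference of 0.85 (SE 0.59) was set by the low value of WT 1 and was 0.077 without that array. The remaining Tpm1 probe sets differed by -0.20 (1456623_at) and -0.019 (1447713_at, below the table's median).

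Tpm2, which encodes beta-tropomyosin, was lower in IRF4 KO on all 4 of its probe sets, none of which separated the genotypes. The brightest, 1419738_a_at, read 13.07, 13.02 and 12.78 on WT 1 to 3 and 12.31, 13.00 and 12.73 on IRF4 KO 1 to 3, with IRF4 KO 1 the lowest of the arrays. The change was -0.28 (SE 0.22, 95% interval -0.78 to 0.22; limma adjusted p = 1.0), with -0.47 for IRF4 KO 1 against WT 3 and -0.18 in the remaining 4 arrays. The other probe sets differed by -0.17 (1425028_a_at), -0.21 (1419739_at) and -0.14 (1449577_x_at, below the table's median).

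Lmod1 (leiomodin) starts new actin filaments in smooth muscle. It read 8.30, 8.31 and 8.43 in WT and 8.11, 8.61 and 8.21 in IRF4 KO, a change of -0.037 (SE 0.19, 95% interval -0.48 to 0.41; limma adjusted p = 1.0). The difference was -0.33 for IRF4 KO 1 against WT 3 and 0.11 in the remaining 4 arrays. The WT arrays lay close together and inside the range of the IRF4 KO arrays. Des read 6.13, 6.50 and 5.21 on WT 1 to 3 and 5.14, 5.84 and 6.01 on IRF4 KO 1 to 3. WT 3 and IRF4 KO 1 were the low arrays, and the change was -0.28 (SE 0.36, 95% interval -1.12 to 0.55). On its second probe set, 1426732_at, Des differed by -0.012.

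**Figure D2:**
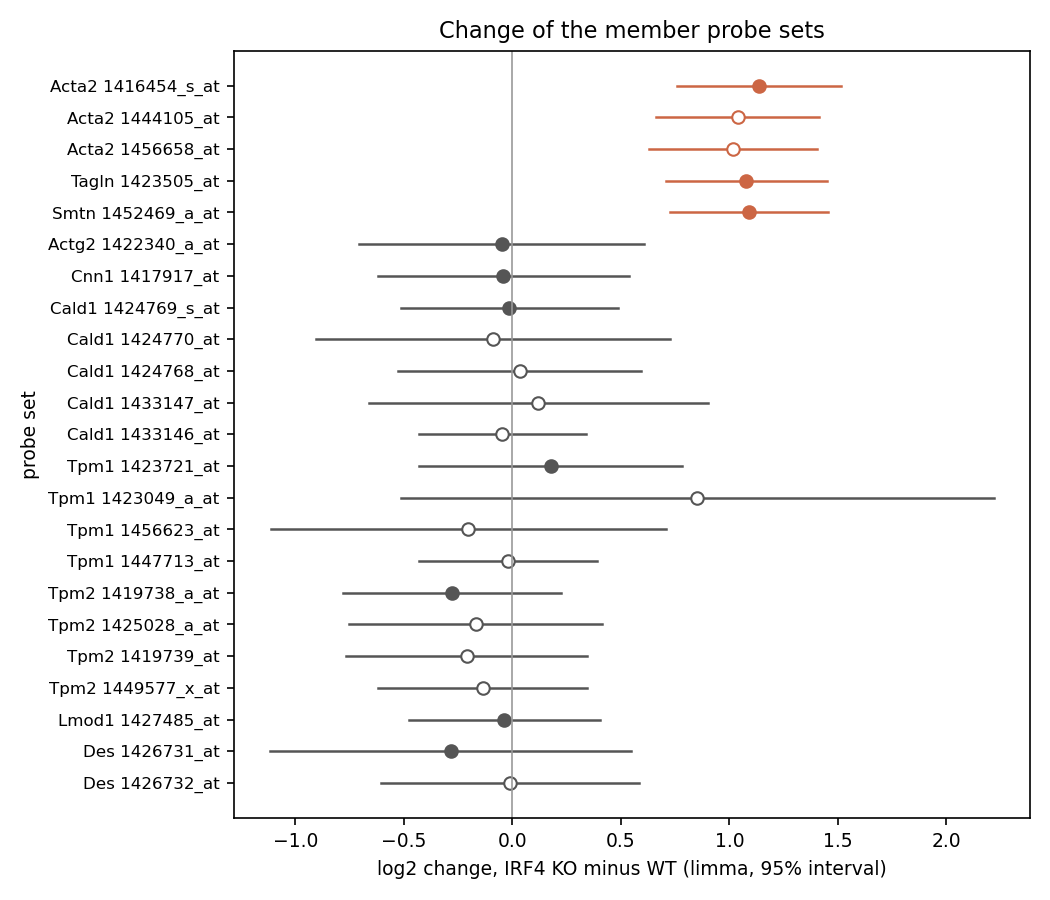
Log2 change (IRF4 KO minus WT, horizontal axis) of the 23 probe sets with limma's 95% interval, 3 arrays per genotype; filled points are the brightest probe set of a gene, and orange marks Acta2, Tagln and Smtn. The 5 orange estimates lie between 1.02 and 1.14 with intervals above 0, and the intervals of the other 18 include 0.

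In the brightest probe sets of the 7 other genes, the change ran from -0.28 to 0.18, and their 95% intervals reached from -1.12 (Des) to 0.78 (Tpm1). Of all 18 probe sets of these genes, 17 had an interval that stayed below 1, the exception being Tpm1 1423049_a_at. A doubling in IRF4 KO thus lay outside these 17 intervals. A fall to 0.5 times the WT level (-1) lay inside 2 of them, those of Des 1426731_at and Tpm1 1456623_at, and outside the other 15. IRF4 KO 1 was the lowest IRF4 KO array for all 7 brightest probe sets and for 14 of the 18, and WT 3 was the lowest WT array for 4 of the 7. Averaged over the 7 genes and centred on the mean of all arrays, WT 1 to 3 read 0.0081, 0.28 and -0.18, and IRF4 KO 1 to 3 read -0.44, 0.22 and 0.11. The same average over Acta2, Tagln and Smtn read -0.56, -0.47 and -0.63 in WT and 0.55, 0.57 and 0.53 in IRF4 KO. IRF4 KO 1, the lowest array for the 7 genes and the one with the highest macrophage marker level (9.26), was thus level with IRF4 KO 2 and 3 for Acta2, Tagln and Smtn. The part of other cell types in these differences was not tested.

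The spread within a genotype also differed between these genes. The pooled SD was 0.089 for the brightest Acta2 probe set, 0.080 for Tagln and 0.049 for Smtn, and 0.083 and 0.11 for the other probe sets of Acta2. Only 0.457% of all probe sets had a smaller SD than Smtn, and 2.23% and 3.28% had a smaller one than Tagln and Acta2. Among the 18 probe sets of the other genes the SD ran from 0.11 to 0.998 with a median of 0.35, above the median of 0.27 over all probe sets, and in their brightest probe sets it was 0.20 (Lmod1) or more.

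Few probe sets combined such a spread with such a change. Of 2936 probe sets with a pooled SD no larger than that of the 5, 21 changed by more than 0.8 either way (a limit chosen after the values were seen), 13 higher and 8 lower. The sizes of these 21 changes lay between 0.90 and 1.15, while the largest among the other 2915 was 0.61. They belonged to 15 genes: Acta2, Tagln, Smtn, Pcna, Vcam1, Ccnd1, Mmp2 and Cd86 were higher in IRF4 KO, and Klf4, Tgfb1, Arg1, Pparg, Mrc1, Cdkn1a and Tesc were lower. For Mmp2 and Cdkn1a this holds for a dimmer probe set, and the brightest of each gene was not among the 21. Over all probe sets that changed by more than 0.8 in either direction, the median SD was 0.69. What gave these 21 probe sets both a small spread and a change near 1 was not tested. Their origin is in doubt: no probe set of that spread had a change between 0.61 and 0.90, with the limit on spread taken from the 5 member probe sets. Acta2, Tagln and Smtn also did not share the array-to-array variation of the other 7 genes. Their small spread alone entails this, so it is no separate ground. The normalized table alone does not settle whether these rows hold what the arrays measured, and the raw scans were not analysed here. The changes given for these 15 genes, Acta2, Tagln, Smtn and Klf4 among them, are therefore provisional until checked against the scans.

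**Figure D3:**
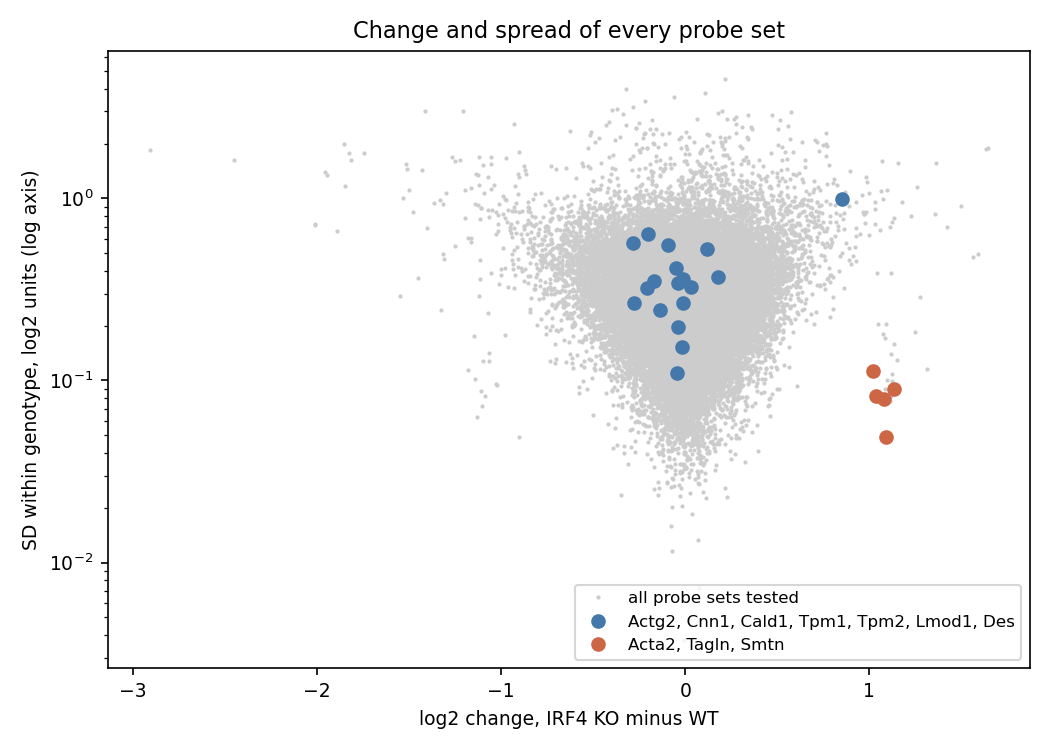
Each grey point is 1 of 45037 probe sets, with its log2 change (IRF4 KO minus WT) on the horizontal axis and its pooled SD within genotype on a log vertical axis; thin filament probe sets are coloured. The 5 orange points of Acta2, Tagln and Smtn lie near a change of 1 with an SD of 0.11 or less, apart from most of the grey cloud. They are among 13 probe sets of such spread with a change above 0.8, the rest being grey, and 8 more have a change below -0.8. The 18 blue points of the other genes lie within the grey cloud.

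The genes most like each member were found by the root mean square difference between log2 profiles over the 6 arrays, each centred on its own mean, among 16429 genes. For Acta2 the nearest were Tagln (0.060), the inducible nitric oxide synthase gene Nos2 (0.082), the replication clamp gene Pcna (0.084), Smtn (0.084) and the adhesion receptor gene Vcam1 (0.10). Tagln and Smtn were each other's nearest gene (0.059). Besides the genes named for Acta2, Smtn had Cd86 (0.069) and Ccnd1 (0.092) among its 5 nearest. Nos2 read 4.54, 4.63 and 4.42 in WT and 5.65, 5.84 and 5.55 in IRF4 KO, a step of 1.15. It was not among the genes of small spread above, but its step is provisional too, since it was not checked against the scans either. No member outside Acta2, Tagln and Smtn was among these. The nearest genes to Cnn1 were BC049762 (0.044), Slc22a2 (0.063), Dhrs3 (0.064), Supt16 (0.068) and Slc16a7 (0.070), all with overlapping genotypes and low values on WT 3 and IRF4 KO 1. Likeness over 6 arrays is given as a description.

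**Figure D4:**
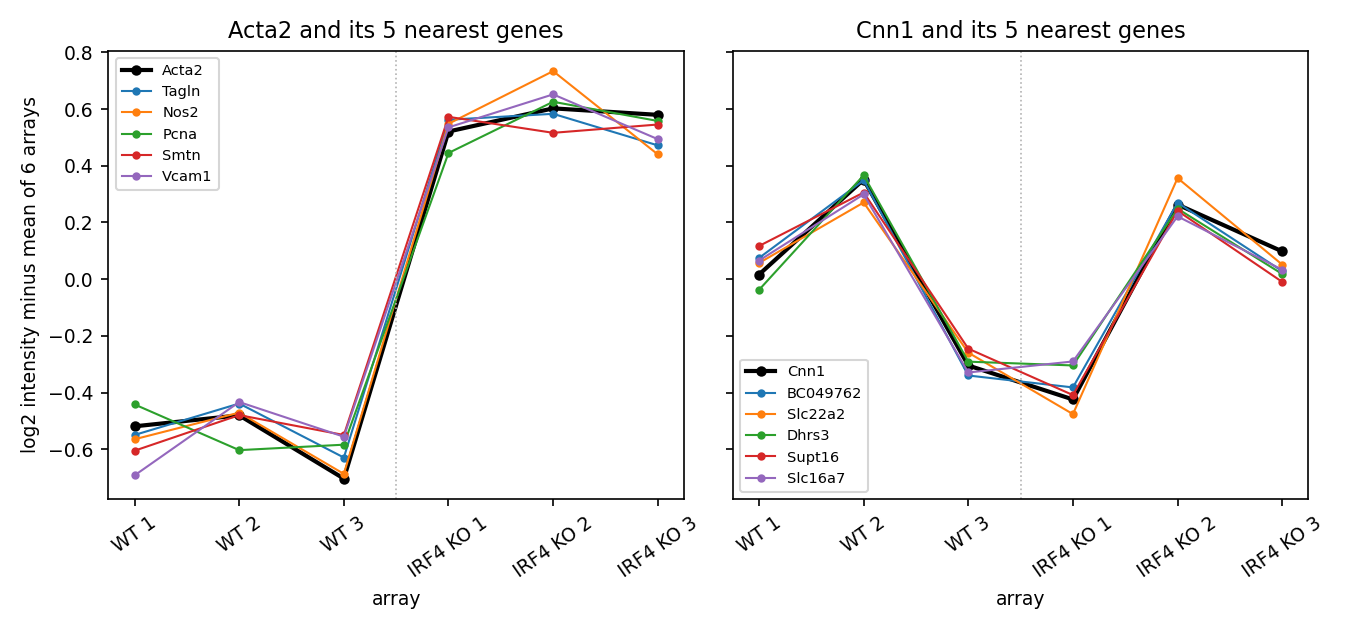
Log2 intensity minus the mean of the 6 arrays (vertical axis) for Acta2 and its 5 nearest genes (left) and for Cnn1 and its 5 nearest genes (right), on each array; the dotted line divides the genotypes. The left set steps up by 1.08 to 1.15 between WT and IRF4 KO, and the right set varies between arrays within each genotype.

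Since Acta2 is a textbook target of SRF, the promoter windows of the members were searched for the CArG box, allowing 1 mismatch. The element reads as the same class on both strands, and overlapping matches were counted separately. The RefSeq promoter table (GRCm38.p6; 250 bases before and 50 after each start) held windows for 8 of the 10 genes; Actg2 and Tagln were not among them. No window of a member held an exact match (1.63% of all 32851 windows did). With 1 mismatch, Acta2, Tpm1 and Lmod1 held 2 matches each and 1 of the 2 Cald1 windows held 1, whereas those of Smtn, Cnn1, Tpm2 and Des held none. Of all windows, 21.1% held a match and 3.70% held 2 or more. The 250 bases before the start are shown for the genes that set matches against changes, with matches in capitals: Acta2 (chr19:34255374-34255623, minus strand), Smtn (chr11:3539293-3539542, minus strand), Tpm1 (chr9:67049214-67049463, minus strand), Lmod1 (chr1:135324563-135324812, plus strand) and Cnn1 (chr9:22099003-22099252, plus strand).
Acta2: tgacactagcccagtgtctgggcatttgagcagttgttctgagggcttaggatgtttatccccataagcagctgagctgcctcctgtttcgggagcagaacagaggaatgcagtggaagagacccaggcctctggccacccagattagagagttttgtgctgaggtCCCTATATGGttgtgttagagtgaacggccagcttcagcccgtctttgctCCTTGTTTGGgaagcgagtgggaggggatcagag
Smtn: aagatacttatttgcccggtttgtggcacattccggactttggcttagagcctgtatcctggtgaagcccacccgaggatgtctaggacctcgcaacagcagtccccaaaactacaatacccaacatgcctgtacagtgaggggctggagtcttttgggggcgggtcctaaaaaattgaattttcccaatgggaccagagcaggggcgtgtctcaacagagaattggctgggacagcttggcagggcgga
Tpm1: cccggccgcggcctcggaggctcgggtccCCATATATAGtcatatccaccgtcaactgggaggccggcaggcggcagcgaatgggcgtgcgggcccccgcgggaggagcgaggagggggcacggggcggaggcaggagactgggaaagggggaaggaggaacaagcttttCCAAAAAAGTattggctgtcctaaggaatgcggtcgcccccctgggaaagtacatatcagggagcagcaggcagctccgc
Lmod1: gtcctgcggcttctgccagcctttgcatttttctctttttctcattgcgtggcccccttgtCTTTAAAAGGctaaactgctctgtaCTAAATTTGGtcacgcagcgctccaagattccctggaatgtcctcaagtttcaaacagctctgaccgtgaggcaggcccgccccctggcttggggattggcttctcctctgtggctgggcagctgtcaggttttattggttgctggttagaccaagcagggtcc
Cnn1: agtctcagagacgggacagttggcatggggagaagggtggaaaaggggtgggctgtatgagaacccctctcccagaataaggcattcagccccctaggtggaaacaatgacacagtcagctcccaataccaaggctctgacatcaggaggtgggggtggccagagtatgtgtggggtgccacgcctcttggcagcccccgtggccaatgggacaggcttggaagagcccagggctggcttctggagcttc
The matches in Acta2 are CCCTATATGG, which begins 84 bases before the start, and CCTTGTTTGG, which begins 34 bases before it. Acta2 was among the genes higher in IRF4 KO, and Tpm1 and Lmod1, which also held 2 matches, were not. Smtn, which was higher, held none in this window. A match is a description of the letters and not a shown binding site, and sites outside the window were not searched.

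The genes around the thin filament were read from 4 lists of 67 genes, of which 64 were measured, and 0 of these 64 had a limma adjusted p under 0.05. At an unadjusted p under 0.05 there were 2 higher and 1 lower (4.69%, against 1.74% of all probe sets), and 2 did not overlap between genotypes (3.12%, against 5.99%). Among the 18 paralogs of the members 12 were higher and 6 lower, with a median change of 0.14 and a range from -0.27 to 0.68. The skeletal actin gene Acta1 was the 1 paralog without overlap, at 5.73, 5.91 and 5.28 in WT and 6.09, 6.11 and 6.16 in IRF4 KO (change 0.48, limma adjusted p = 1.0). Lmod3, a leiomodin of striated muscle, read between 2.04 and 2.67 on all arrays, below the table's median, and differed by -0.27. The actins of all cells, Actb and Actg1, differed by 0.14 and 0.13. Of the 9 skeletal muscle markers other than Acta1, 7 lay below the table's median, and these 9 averaged 3.13 to 3.37 in WT and 3.28 to 3.53 in IRF4 KO. In IRF4 KO 7 of the 9 were higher, and Tnni2 (0.44) and Myh4 (0.25, below the table's median) did not overlap either. Cardiac markers averaged 3.34 to 3.50 and 3.37 to 3.64, with 5 of 6 below the median.

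In the list of proteins that anchor or turn over actin, 16 of 25 measured genes were higher and 9 lower, with a median of 0.14. Tln1 (talin), which links integrins to actin, was the gene without overlap, at 8.59, 8.74 and 8.71 in WT and 9.15, 9.20 and 8.88 in IRF4 KO. That is a change of 0.40 (limma adjusted p = 1.0), and it turned to -0.098 in the mean over all Tln1 probe sets. Among 10 genes of intermediate filaments and their links, 4 were higher and 6 lower, with a median of -0.045. Nes (nestin) differed by 0.53 and Lmna (lamin A/C) by -0.79, both with overlap between genotypes. Over the alternatives described below, Nes ran from 0.28 to 0.73 and Lmna from -1.07 to -0.063, so the size of the Lmna change depended on the processing.

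Smooth muscle genes outside the thin filament gave 5 higher and 6 lower of 11 measured, with a median of -0.042 and changes from -0.50 to 0.24. Myh11, the heavy chain of smooth muscle myosin and the most specific marker of the lineage, read 11.44, 12.22 and 11.84 in WT and 11.65, 12.30 and 12.13 in IRF4 KO, a change of 0.19 (95% interval -0.41 to 0.79; limma adjusted p = 1.0). The difference was -0.19 for IRF4 KO 1 against WT 3 and 0.38 in the remaining 4 arrays. The other Myh11 probe set differed by -0.11. Ppp1r14a, an inhibitor of myosin phosphatase, differed by -0.50, with -0.77 to -0.11 over the alternatives described below. The myocardin gene Myocd and Srf differed by -0.13 and -0.14, although a dimmer probe set of each differed by 0.20 and 0.30. All of the brightest probe sets overlapped between genotypes. Klf4, which encodes the repressor named above, read 8.11, 7.92 and 7.995 in WT and 6.95, 6.75 and 6.91 in IRF4 KO, a change of -1.14 with no overlap (limma adjusted p = 0.344), and its other probe set gave -1.10.

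**Figure D5:**
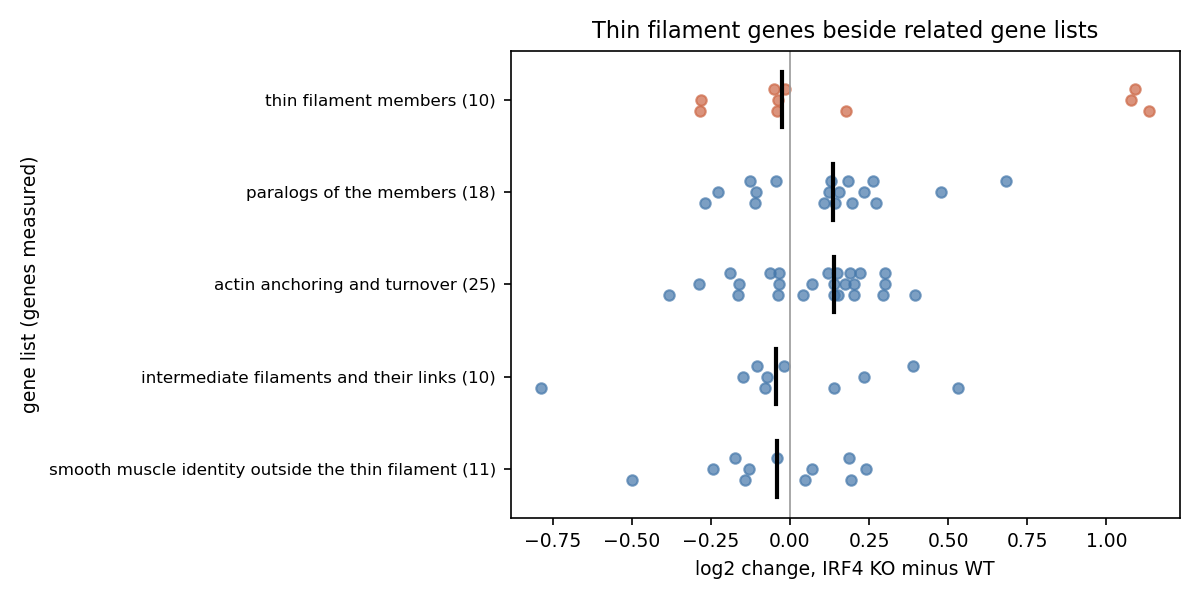
Log2 change (IRF4 KO minus WT, horizontal axis) of the 10 thin filament genes (orange) and of the measured genes of 4 related lists (blue), 1 point per gene at its brightest probe set, with the list median as a black bar. Acta2, Tagln and Smtn lie at 1.08 to 1.14, and the largest change in the blue lists is 0.68 upward (Actc1, the cardiac actin gene) and -0.79 downward (Lmna).

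Markers of other cell types that can hold actin filaments were compared beside these values. Fibroblast markers (6 genes) averaged 7.55 to 9.44 in WT and 7.43 to 9.94 in IRF4 KO, with WT 3 and IRF4 KO 1 highest. Endothelial markers (6 genes) averaged 6.55 to 7.35 and 7.10 to 7.55, and all 6 were higher in IRF4 KO by a median of 0.27 with overlap between the list means. Fat cell markers averaged 4.75 to 4.97 in WT and 4.48 to 4.88 in IRF4 KO (3 of 4 measured, 2 below the table's median). Nerve markers (2 of 4 measured) averaged 3.93 to 4.93 and 3.94 to 5.03. Immediate early genes averaged 7.67 to 8.28 in WT and 8.27 to 8.78 in IRF4 KO. Of these genes 4 of 5 were higher in IRF4 KO, with a median over the list of 0.49. Whether tissue handling had a part in this was not tested. Egr1 differed by 0.89 (limma adjusted p = 1.0) and Fos by 0.81, both with overlap, and Atf3 differed by -0.43 without overlap. For IRF4 KO 1 against WT 3, Egr1 and Fos each gave -0.22, and in the remaining 4 arrays they gave 1.45 and 1.33. The other genes of this list kept their direction in both sets of arrays. In none of these lists did a gene pass the limma threshold, and their part in the changes of Acta2, Tagln and Smtn was not tested.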

How the data were processed

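RNA of injured carotid arteries was labelled from 400 ng of total RNA per array, per the labels' protocols, with 3 arrays per genotype. The deposited values are log2 intensities per probe set, which the authors obtained by RMA in Affymetrix Expression Console; RMA corrects background, normalizes between arrays and summarises probes, per the submitters' processing notes. The sources used here name no version or setting. RMA understates changes of dim probe sets. Array medians ran from 3.94 to 4.12 and values from 1.34 to 13.92.

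Probe sets were named through GEO's platform annotation: 34958 had 1 symbol, 932 several and 9211 none. All 23 member probe sets matched RefSeq by Entrez number. The 64 controls were left out, and 45037 probe sets were fitted by genotype alone with limma 3.58.1 under R 4.3.3 (two-sided, eBayes without a trend), with Benjamini-Hochberg adjustment over all of them and calls at an adjusted p under 0.05. Changes are IRF4 KO minus WT, SE is the moderated standard error, and the SD is pooled over both genotypes. The low poly-A arrays were found from 24 spike-in probe sets.

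Named genes are all members, Irf4, Myh11, Klf4, the 6 list genes with the smallest p (Nes, Lmna, Acta1, Tln1, Ppp1r14a and Lmod3) and the 5 nearest profiles of Acta2, Tagln, Smtn and Cnn1. Actb, Actg1, Actc1, Myocd, Srf Tnni2, Myh4, Egr1, Fos, Atf3 and the genes with small spread were named after their values were seen. Members, lists and tests were chosen with earlier results of these data known. On data simulated for this comparison over 45037 probe sets, 3% of changes of 1 log2 unit and 55% of changes of 2 were recovered at the adjusted threshold, with 1 false call. A change of 1 was thus seldom called in the simulation with 3 arrays per genotype. The changed probe sets lay above the median level, and noise was drawn independently for each probe set and array. Deviations of the real arrays were correlated, so these rates need not hold for them. Alternatives were a replicate block, 1 probe set per gene, the mean of a gene's probe sets, a filter on dim probe sets, median and quantile scaling, a robust trend, array weights, a block for the low poly-A arrays, leaving out arrays, and a threshold of 0.1; a second estimate of the array weights was added after seeing the data.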

Additional observations from a re-analysis of the deposited data

How the results depend on the processing

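The 5 probe sets of Acta2, Tagln and Smtn kept their direction in all 81 values from 17 alternatives, at changes from 0.84 to 1.18. Array weights, which gave IRF4 KO 2 a weight of 11.95 and WT 2 one of 3.16 against 0.34 to 0.52 for the other 4 arrays, and whose estimate stopped before it converged, called 69 probe sets, 5 of them members. The limma adjusted p was then 0.00353 for Acta2 1416454_s_at (change 1.11), Acta2 1444105_at (1.12), Tagln (1.05), Smtn (1.02) and Klf4 (-1.19), and 0.0168 for Acta2 1456658_at (0.84). The estimate made gene by gene, chosen after seeing the data, called 29 probe sets and 4 members, with an adjusted p of 0.0388 for Acta2 1416454_s_at (1.14), 1444105_at (1.10), Tagln (1.08), Smtn (1.04) and Klf4 (-1.19). Such weights rest mostly on 1 array per genotype. Over all alternatives the adjusted p of these probe sets ran from 0.00353 to 1.0. No other alternative called a member, and none called a list gene. Without WT 3 and IRF4 KO 1 together, 6 probe sets passed, and 0 to 4 did when 1 array was left out (4 without IRF4 KO 1); none were members.

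At an unadjusted p under 0.05, all probe sets numbered 782. There were 357 with the replicate block, 271 with 1 probe set per gene, 288 with the mean of a gene's probe sets, 369 without dim probe sets, 9634 and 3170 with the array weights, 1653 with the poly-A block, 1510 without both low poly-A arrays and 513 to 1748 without 1 array. Members at that p, and members without overlap, numbered 3 with either gene-level fit, since Acta2 then counts once. Those without overlap numbered 11 without both low poly-A arrays and 5 to 9 without 1 array (9 without WT 3), as fewer arrays overlap less often. The share of all probe sets without overlap was not computed for these settings, so these counts cannot be read as a result about the members. The replicate block changed no call of a member (0, with 5 at unadjusted p under 0.05). Arrays with the same number gave correlations of their deviations of -0.51, 0.31 and -0.59 over probe sets. The highest correlation, 0.65, joined WT 3 and IRF4 KO 1, the low poly-A arrays, which carry different numbers. With that difference in the deviations, the correlations cannot show whether the numbers pair the samples.

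Values that changed sign were small, and none were called. With the mean of a gene's probe sets these were Cald1 (0.000193) and Tln1 (-0.098), with median scaling Cald1 1424768_at (-0.0017), and with quantile normalization Lmod1 (0.024). With array weights they were Cald1 1424769_s_at (0.21), Cald1 1424768_at (-0.12), Tpm2 1449577_x_at (0.10), Lmod1 (0.26) and Irf4 (0.11). With weights made gene by gene they were Cnn1 (0.053), Cald1 1424769_s_at (0.17), Cald1 1424768_at (-0.032), Tpm1 1456623_at (0.041), Tpm2 1425028_a_at (0.0064), Tpm2 1449577_x_at (0.075), Lmod1 (0.20) and Irf4 (0.090). Without both low poly-A arrays they were Cald1 1424769_s_at (0.21), Cald1 1424768_at (-0.071), Tpm2 1419739_at (0.093), Lmod1 (0.11) and Des 1426732_at (0.063). Leaving out 1 array gave Actg2 -0.25 to 0.19, Cnn1 -0.20 to 0.16, Lmod1 -0.19 to 0.066, Myh11 -0.0027 to 0.39 and Irf4 -0.19 to 0.087. For Cald1 it gave -0.15 to 0.20 (1424769_s_at), -0.45 to 0.18 (1424770_at), -0.19 to 0.17 (1424768_at), -0.23 to 0.42 (1433147_at) and -0.096 to 0.016 (1433146_at). It gave -0.53 to 0.19 for Tpm1 1456623_at, -0.12 to 0.082 for Tpm1 1447713_at, -0.27 to 0.0015 for Tpm2 1449577_x_at and -0.24 to 0.20 for Des 1426732_at. The number of arrays limits the precision, and the deposited values do not carry probe-level background.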
